A study of Mus musculus with 6 samples.

Results

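The genes described here encode corepressors, the proteins that DNA-bound repressors such as Tgif1 use to silence their targets: the C-terminal binding proteins Ctbp1 and Ctbp2, the scaffolds Sin3a and Sin3b, the histone deacetylases Hdac1, Hdac2 and Hdac3, and the nuclear receptor corepressor Ncor1. They were chosen by symbol, and all 8 were found among the 22381 genes of the deposited table, each on 1 line. RNA was sequenced from LSK cells (lineage-negative, Sca-1-positive, c-Kit-positive), the bone marrow fraction that holds blood stem cells and multipotent progenitors. The samples, all from C57BL/6 mice of 8 to 12 weeks, comprised 3 labelled Tgif1-/- and 3 labelled wild type (WT). The labels do not say whether the samples of a group are separate animals, so p-values may cover technical spread alone. Each group has a single FPKM value in the table (fragments scaled to transcript length and to the library's mapped total). Values of single samples and an SD were therefore not analysed, and the depth is unknown.

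Corepressors do not bind DNA themselves. Tgif1, a homeodomain protein that represses TGF-beta and retinoid responses, recruits CtBP proteins through a short peptide motif and also contacts Sin3 and class I histone deacetylases. Sin3 proteins hold Hdac1 and Hdac2 in one complex, whereas Ncor1 binds and activates Hdac3. The deacetylases remove acetyl groups from histone tails, which is linked to lower transcription. The comparison asks whether the RNA of this machinery differed between cells labelled as lacking Tgif1 and WT cells.

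None of the corepressor genes was called different between the groups. In the Cuffdiff test of the authors' deposited table, 0 of the 7 tested corepressor genes had a q at or under 0.05, against 0.662% of the 10730 genes tested. The eighth, Hdac2, could not be tested because the table marks its test as failed. Without adjustment, 2 of the 7 had a p under 0.05 in the authors' deposited table, Hdac3 and Ncor1, both lower in cells labelled Tgif1-/-, against 5.41% of all tested genes in either direction and 3.55% that were lower. Ratios below put cells labelled Tgif1-/- over cells labelled WT, on the log2 scale. Of the 7 tested genes, 6 had a log2 ratio below 0 (5 when centred on the median of all tested genes) and the median was -0.17. Over all 10683 tested genes with a finite ratio the median was -0.03, and 57.4% lay below 0. Of these, 4563 had a mean of at least 15 FPKM, a level that every corepressor gene reached. Their median was -0.01, and 53.0% lay below 0. Both shares are without centring, which would put the median over all tested genes at 0.

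Tgif1 itself was listed at 88.6 FPKM in cells labelled Tgif1-/- and 71.5 FPKM in cells labelled WT, and its test failed, so the targeted gene does not bear out the label and each direction is one between groups as labelled. Loss of an exon could go unseen in a value for the gene as a whole. The LSK identity was visible in both groups, with Kit at 193 and 202 FPKM, Ly6a (Sca-1) at 120 and 88.9 FPKM and Cd34 at 314 and 316 FPKM in cells labelled Tgif1-/- and WT. The T cell gene Cd3e was listed at 0.134 and 0.250 FPKM, while the myeloid integrin Itgam stood at 35.4 and 34.0 FPKM. None of the 8 mature lineage markers was at 0 in either group, and they summed to 42.0 FPKM in cells labelled Tgif1-/- and 43.2 FPKM in cells labelled WT. Marker genes were named after their values were seen, so the counts that follow describe them and are no test of an excess. Mast cell and basophil markers moved with the comparison. Called higher in cells labelled Tgif1-/- by Cuffdiff in the authors' deposited table were 4 of 8 tested, against 0.662% of all tested genes called in either direction. The 9 listed summed to 457 FPKM in cells labelled Tgif1-/-, against 211 FPKM in cells labelled WT. All 8 tested had a log2 ratio above 0, though Tpsb2 was nearly equal, at 0.776 and 0.698 FPKM. Of 8 early B lineage markers, 4 were called lower, against the same 0.662%, and the 8 summed to 58.2 FPKM in cells labelled Tgif1-/- and 120 FPKM in cells labelled WT. Of the 8, 7 had a log2 ratio below 0, and Cd79b was nearly equal, at 27.8 and 27.6 FPKM. No marker of either list was at 0. The part of these markers in the values below was not tested, and in bulk RNA fewer cells of a type and less RNA per cell cannot be told apart.

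The corepressor genes spanned a wide range of levels. Ncor1 had the most RNA per length, at 317 FPKM in cells labelled Tgif1-/- and 356 FPKM in cells labelled WT, which placed its mean above 97.7% of tested genes. Sin3a came next, followed by Hdac2, Hdac1, Sin3b, Ctbp1, Hdac3 and Ctbp2. Ctbp2 was lowest, at 15.7 FPKM in cells labelled Tgif1-/- and 15.9 FPKM in cells labelled WT, yet its mean still lay above 58.6% of tested genes. The order was the same in both groups. Whether neighbours in it, such as Hdac2 and Hdac1, differ beyond the spread of the samples cannot be read from 1 value per group. Summed over the 8 genes the level was 967 FPKM in cells labelled Tgif1-/- and 1058 FPKM in cells labelled WT.

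**Figure D1:**
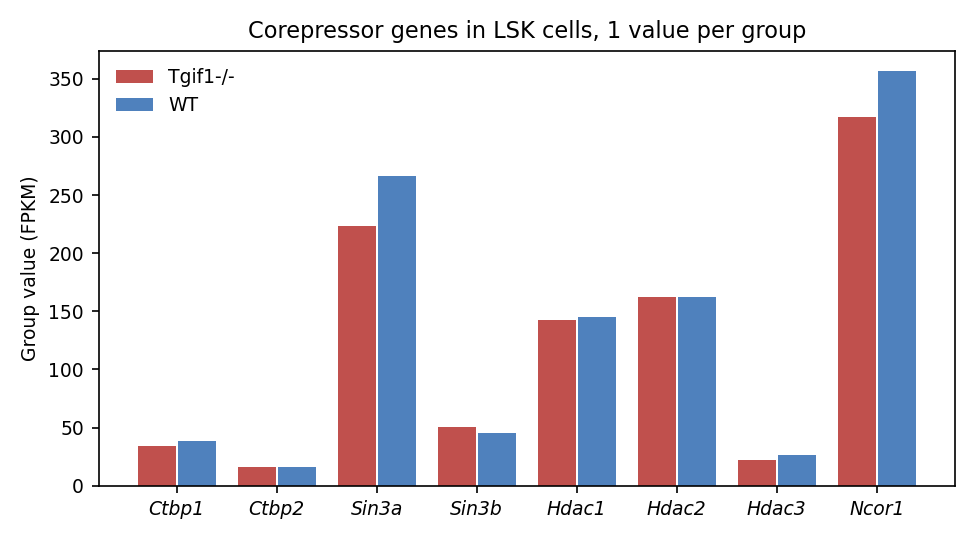
Group FPKM values of the 8 corepressor genes; the vertical axis is FPKM from 0, and each gene has a bar for cells labelled Tgif1-/- (red) left of the bar for cells labelled WT (blue). There is 1 value per group and no error bar; Ncor1 is highest, at 317 and 356 FPKM, and Ctbp2 lowest, at 15.7 and 15.9 FPKM.

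CtBP proteins are dimeric, dehydrogenase-like corepressors that bring histone deacetylases and histone methyltransferases to repressors carrying their binding motif. Ctbp1 (ENSMUSG00000037373, chromosome 5, positions 33590372 to 33617618) was at 33.8 FPKM in cells labelled Tgif1-/- and 38.6 FPKM in cells labelled WT. Its log2 ratio was -0.19 with a standard error of 0.21, where the standard error is the log2 ratio divided by the deposited test statistic, so it reflects the authors' model, not a spread measured between samples. The p of Ctbp1 in the authors' Cuffdiff test, from their deposited table, was 0.371. The 95% interval from that error ran from 0.656-fold to 1.17-fold. Positions are those of the deposited table, counted from 1, and the sources used here do not name their mouse build.

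Ctbp2 (ENSMUSG00000030970) was nearly equal in the groups, with a log2 ratio of -0.017 and a standard error of 0.23. Its p in the Cuffdiff test of the authors' deposited table was 0.944, and its interval, from 0.719-fold to 1.36-fold, leaves changes of moderate size possible. The table lists Ctbp2 at chromosome 7, positions 137305965 to 140316037, a block that 33 lines of the table share, so its reads and those of its neighbours may not have been separated. In the GENCODE M21 transcripts, 4.07% of the 50-base stretches of Ctbp2 also occur in transcripts of another gene, all in Fgfr2. Per length, Ctbp1 RNA exceeded Ctbp2 RNA 2.16-fold in cells labelled Tgif1-/- and 2.43-fold in cells labelled WT. The difference of their log2 ratios was -0.17 with a combined standard error of 0.32, inside that error.

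Sin3 proteins are large scaffolds with paired amphipathic helix domains that dock repressors on one side and deacetylases on the other. Sin3a (ENSMUSG00000042557, chromosome 9, positions 56919847 to 56976173) was at 223 FPKM in cells labelled Tgif1-/- and 267 FPKM in cells labelled WT. The log2 ratio was -0.26 with a standard error of 0.14, and the interval, from 0.693-fold to 1.01-fold, reached just past no change. The p of Sin3a in the Cuffdiff test of the authors' deposited table was 0.0624.

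Sin3b (ENSMUSG00000031622, chromosome 8, positions 75247187 to 75282102) was the tested gene of the set that lay in the other direction, at 50.4 FPKM in cells labelled Tgif1-/- and 45.7 FPKM in cells labelled WT. Sin3b had a log2 ratio of 0.14 with a standard error of 0.22, its interval ran from 0.815-fold to 1.49-fold, and its p in the Cuffdiff test of the authors' deposited table was 0.524. Sin3b is linked to cell cycle exit in other cell types. The RNA ratio of Sin3a to Sin3b was 4.42 in cells labelled Tgif1-/- and 5.83 in cells labelled WT. On the log2 scale that difference was -0.40 with a combined standard error of 0.26, an interval of -0.91 to 0.11 that includes 0.

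Hdac1 and Hdac2 are close paralogs that can replace each other in many cells and form the catalytic core of the Sin3, NuRD and CoREST complexes. Hdac1 (ENSMUSG00000028800, chromosome 4, positions 129193348 to 129219957) was at 142 FPKM in cells labelled Tgif1-/- and 146 FPKM in cells labelled WT. Its log2 ratio of -0.03 had the smallest standard error of the set, 0.041, and an interval from 0.924-fold to 1.03-fold. The p of Hdac1 in the Cuffdiff test of the authors' deposited table was 0.414. Hdac2 (ENSMUSG00000019777, chromosome 10, positions 36694350 to 36721695) was at 162 FPKM in both groups, a log2 ratio of 0.0041, and with its test failed it has neither an error nor a p. Failed tests were common at such levels, at 33.1% of the 5798 listed genes whose mean reached 20 FPKM. Hdac1 RNA was 0.876 times that of Hdac2 in cells labelled Tgif1-/- and 0.899 times in cells labelled WT.

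The genome also holds a near-identical copy of Hdac1, so reads shared with it leave the value uncertain. Gm10093 on chromosome 17, positions 78890905 to 78892881, is annotated in GENCODE M21 as a processed pseudogene, and its 1444 bases line up without a gap with the first 1444 of the 1446 coding bases of Hdac1, with 9 mismatches (99.4% identity). The longest stretch without a mismatch is 450 bases, coding positions 720 to 1169 counted from 1 at the start codon. A read lying wholly within it could come from either gene. The 60 bases with the most mismatches, coding positions 432 to 491, are shown because they are where reads of the pair can best be told apart; capitals mark the 5 differing bases, T441A, A460G, C465T, C472T and T482C (the Hdac1 base, its coding position, then the Gm10093 base), and the GENCODE M21 sequences run 5′ to 3′.
Hdac1: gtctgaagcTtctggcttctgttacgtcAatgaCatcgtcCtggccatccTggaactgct
Gm10093: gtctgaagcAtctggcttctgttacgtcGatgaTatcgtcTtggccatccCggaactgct

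The deposited table gave Gm10093 its own value, 44.6 FPKM in both groups, with a log2 ratio of 0.00036 and a standard error of 0.21. Hdac1 exceeded it 3.19-fold in cells labelled Tgif1-/- and 3.26-fold in cells labelled WT. Of the 50-base stretches of Gm10093, 80.4% also occur in Hdac1 transcripts. Of those of Hdac1, 31.7% occur in Gm10093, and 35.3% in transcripts of any other gene, Gm10093 included. The sources used here do not say how reads that match both Hdac1 and Gm10093 were divided. Of the other corepressor genes, Ctbp2 as described, Ncor1 (1.14%) and Sin3b (0.0408%) shared any 50-base stretch with transcripts of other genes, whereas Ctbp1, Sin3a, Hdac2 and Hdac3 shared none. All these shares count matches on the same strand only.

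Hdac3, which works mainly inside the NCoR complex and is needed for normal blood stem cell function in mice, had the smallest p of the set. The gene (ENSMUSG00000024454, chromosome 18, positions 38095498 to 38114642) was at 22.2 FPKM in cells labelled Tgif1-/- and 26.8 FPKM in cells labelled WT. The log2 ratio of -0.27 came with a standard error of 0.087, an interval from 0.737-fold to 0.933-fold. In the Cuffdiff test of the authors' deposited table its p was 0.00183, which only 120 tested genes, Hdac3 included, reached or went below, and its q was 0.164, so the lower value did not pass adjustment over all genes.

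Ncor1, which links Hdac3 to unliganded nuclear receptors including those for retinoic acid, was the other gene with a small p. The gene (ENSMUSG00000018501) lies on chromosome 11 in a block of positions 62094975 to 62329795 shared by 3 lines of the table. Its log2 ratio was -0.17 with a standard error of 0.064, an interval from 0.816-fold to 0.970-fold. In the Cuffdiff test of the authors' deposited table its p was 0.00823 and its q 0.394, which is no call. With exons covering 12811 bases in GENCODE M21, Ncor1 is among the 677 longest tested genes of at least 5 FPKM, whose median log2 ratio was -0.05, against 0.0081 for the 677 shortest. The part of length in the Ncor1 value was not tested.

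**Figure D2:**
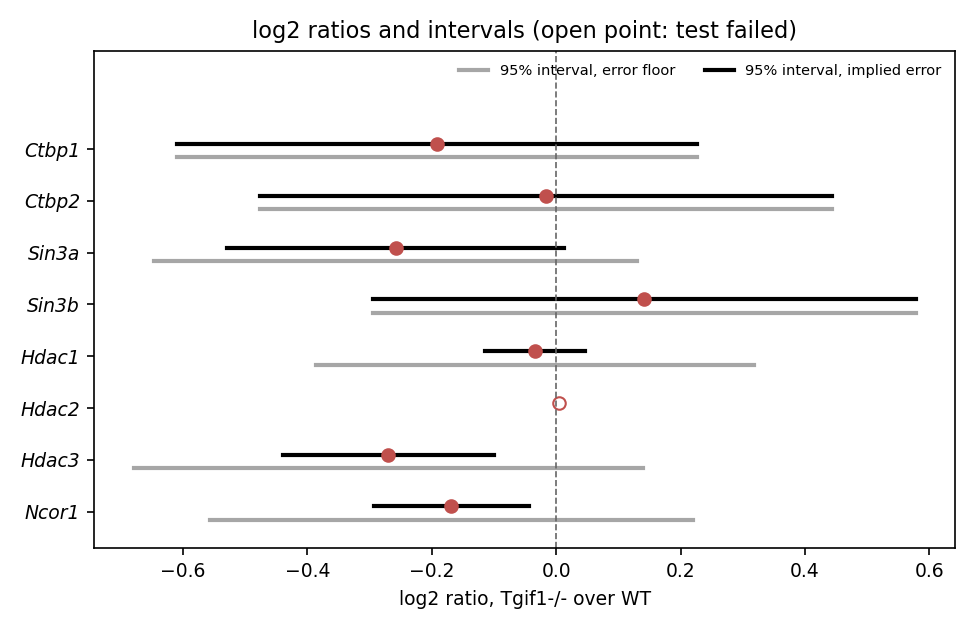
log2 ratio of each corepressor gene, cells labelled Tgif1-/- over cells labelled WT, on the horizontal axis, with a point per gene, a black line for the 95% interval from the implied standard error and a grey line for the interval with an error floor, where each error is at least the median of genes at a like level. The black intervals of Hdac3 and Ncor1 lie below 0 and all grey ones include it; Hdac2 (open point) has no interval because its test failed.

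The small p-values of Hdac3 and Ncor1 rest on standard errors that were small for genes of their level. Tested genes were put in 20 bins by mean FPKM, and the median standard error in the bin of Hdac3 was 0.21, with 12 of 534 genes below that of Hdac3. Around Ncor1 the median was 0.20, with 26 of 535 genes below it. Around Hdac1 it was 0.18, and 3 of 534 genes had a smaller error than Hdac1. Sin3a was also below its bin's median, whereas Ctbp1, Ctbp2 and Sin3b were slightly above theirs. With each error raised to at least the median of its bin, the unadjusted normal p became 0.196 for Hdac3, 0.395 for Ncor1 and 0.192 for Sin3a, and 0 of 7 corepressor genes had an unadjusted p under 0.05, against 2.38% of all tested genes. The floor can only raise an error, so it could take a small p away but not add one.

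**Figure D3:**
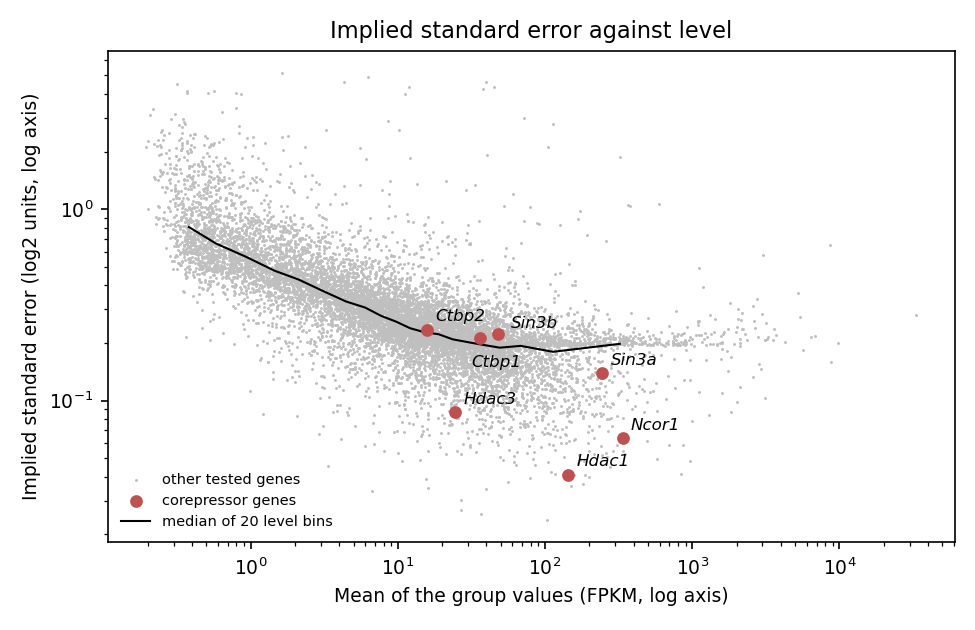
Implied standard error of the log2 ratio (vertical, log axis) against the mean of both group values in FPKM (horizontal, log axis) for the tested genes; red points are the 7 tested corepressor genes and the line joins the medians of 20 level bins. Hdac1 (0.041), Ncor1 (0.064) and Hdac3 (0.087) lie well below the line, and Ctbp1, Ctbp2 and Sin3b close to it.

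The same errors set what could have been called. The largest p among called genes in the authors' deposited table was 0.000318. At that p, a call would have needed an observed change of 1.11-fold for Hdac1, 1.17-fold for Ncor1, 1.24-fold for Hdac3, 1.41-fold for Sin3a, 1.70-fold for Ctbp1, 1.74-fold for Sin3b and 1.80-fold for Ctbp2. With the error floor the largest p among called genes was 7.38e-05, and these sizes lay between 1.64-fold and 1.91-fold for all 7. Smaller observed changes would not have been called. These sizes are not limits on the true changes, which are not shown to be absent.

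Partners of the corepressors were read from 10 lists of subunits, recruiting factors and opposing enzymes, 95 genes in all besides the 8. In the Cuffdiff test of the authors' deposited table, 0 of the 62 tested were called at a q at or under 0.05. Without adjustment 3 had a p under 0.05, all 3 lower in cells labelled Tgif1-/- (Wiz, Zfp644 and Tle3), against 5.41% of all tested genes in either direction and 3.55% that were lower. Zfp644 and Tle3, with exons covering 14001 and 11653 bases, are like Ncor1 among the 677 longest tested genes of at least 5 FPKM. The part of length in their values was not tested. With the error floor, which can only raise an error, 0 of the 62 had an unadjusted p under 0.05, against 2.38% of all tested genes. The tests of 31 failed and 2 had too few reads. Of the 62, 45 had a log2 ratio below 0, 42 when centred on the median of all tested genes, and the median was -0.09. Over all tested genes, without centring, 57.4% lay below 0, with a median of -0.03.

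The 13 CtBP and CoREST subunits included 2 of those 3 genes. Wiz, a zinc finger partner of the G9a and GLP methyltransferases that also binds CtBP, was at 24.2 FPKM in cells labelled Tgif1-/- and 28.2 FPKM in cells labelled WT. Its log2 ratio was -0.22 with a standard error of 0.084, and its p and q in the Cuffdiff test of the authors' deposited table were 0.00801 and 0.389; with the error floor the unadjusted normal p was 0.284. Zfp644, another zinc finger protein of that methyltransferase complex, was at 102 and 109 FPKM in cells labelled Tgif1-/- and WT, with a p of 0.0398 in the authors' deposited table (Cuffdiff) and 0.584 with the error floor. Phf21a, a histone reader of the CoREST complex, had the highest level of the list, at 190 and 210 FPKM. Of 11 tested members 9 had a log2 ratio below 0, and the list median was -0.10.

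Around Sin3, 9 of 13 tested accessory subunits had a log2 ratio below 0 and the median was -0.05. The histone chaperone Rbbp7 was the most abundant, at 284 FPKM in cells labelled Tgif1-/- and 297 FPKM in cells labelled WT. Sap130 was at 26.6 and 30.8 FPKM and the PHD finger protein Phf12 at 61.3 and 65.7 FPKM, in the same order, and neither was called by Cuffdiff. In the NCoR list 2 of 5 genes were tested, with a median of -0.05. They were the WD-repeat subunits Tbl1x, at 74.9 and 85.7 FPKM, and Tbl1xr1, at 62.2 and 58.6 FPKM, which help exchange corepressors for coactivators, and neither was called. Of the NuRD chromatin remodelling complex, which also holds Hdac1 and Hdac2, 6 of 10 tests failed and the 4 tested had a median of -0.09. Its subunits Mta2 and Chd4 were at 69.2 and 76.9 FPKM and at 95.7 and 101 FPKM, and Cdk2ap1, whose test failed, at 134 and 146 FPKM.

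Of 7 class II and class IV deacetylase genes tested, 4 had a log2 ratio below 0 (3 when centred). Their median was -0.0021, and -0.10 at 5 FPKM or more, a minimum that leaves out Hdac11 (2.71 and 2.49 FPKM). Hdac5 was the most abundant, at 65.7 FPKM in cells labelled Tgif1-/- and 74.9 FPKM in cells labelled WT, and Hdac9 was at 4.46 and 5.13 FPKM. The class I gene Hdac8, which works outside the large corepressor complexes, was at 9.62 and 10.2 FPKM. Of 6 genes of the transducin-like corepressor family, 5 were tested with a median of -0.10. Tle3 was at 59.6 and 68.7 FPKM, with a p of 0.0377 in the authors' deposited table (Cuffdiff), 0.288 with the error floor, and no call, and Aes at 70.6 and 79.9 FPKM.

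Among the listed factors that recruit CtBP, Ikzf1 (Ikaros), a regulator of lymphoid development, was the most abundant, at 236 FPKM in cells labelled Tgif1-/- and 295 FPKM in cells labelled WT. The log2 ratio of Ikzf1, -0.32, has no error because the test failed. Bcl11a was at 146 and 164 FPKM and Mecom, a stem cell regulator also known as Evi1, at 33.5 and 34.9 FPKM. Of 9 tested factors 7 had a log2 ratio below 0, 6 when centred. Of the Tgif1 relatives and Smad or retinoid partners, 6 of 10 were tested, with a median of -0.10. Tgif2, the closest paralog of Tgif1, was at 12.0 and 10.5 FPKM with its test failed, the Smad corepressor Ski at 15.5 and 17.2 FPKM, the retinoid receptor Rxra at 4.89 and 6.02 FPKM and Pml, also failed, at 102 FPKM in both groups. The acetyltransferases and coactivators, which oppose the deacetylases, had 4 tested genes with a median of -0.09, with Kat6b at 11.3 and 13.1 FPKM, Kat2b at 38.5 and 35.5 FPKM and Kat7, whose test failed, at 106 and 98.8 FPKM.

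**Figure D4:**
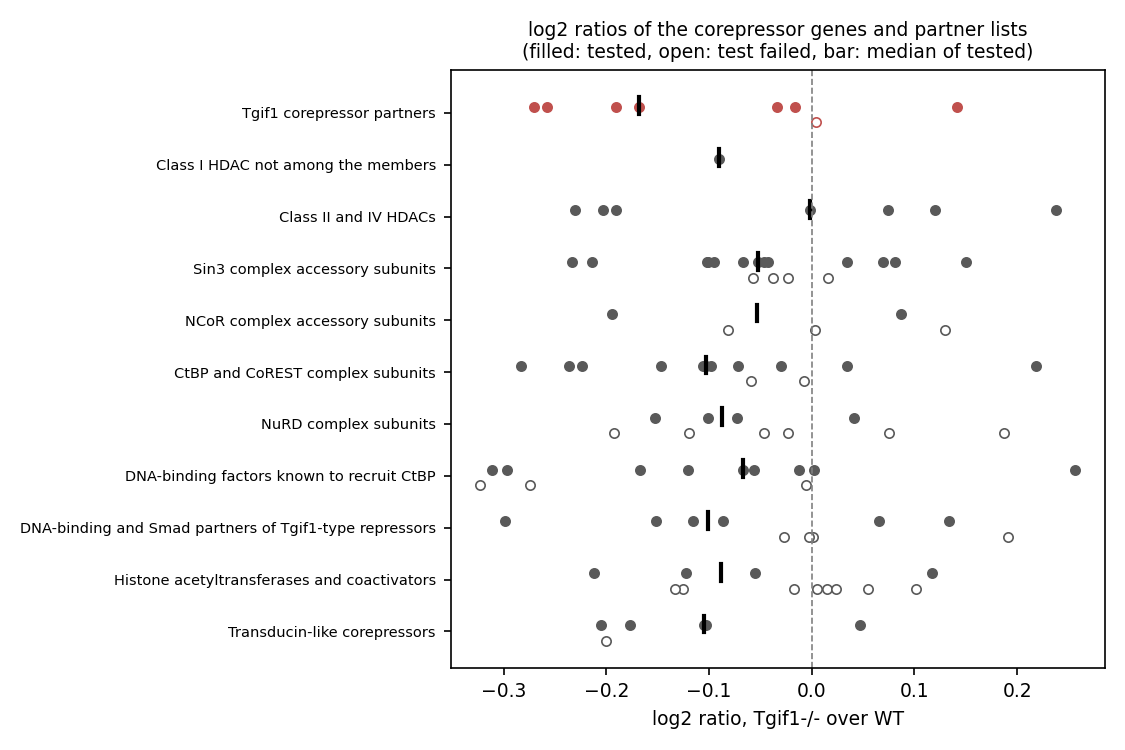
log2 ratio, cells labelled Tgif1-/- over cells labelled WT (horizontal axis), of the 8 corepressor genes (red, top row) and of 10 partner lists (grey), with a filled point per tested gene, an open point per gene whose test failed and a bar at the median of the tested genes. The medians of the partner lists run from -0.10 for transducin-like corepressors to -0.0021 for class II and IV deacetylases (-0.10 at 5 FPKM or more), and no point belongs to a called gene; genes with too few reads are not drawn.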

How the data were processed

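RNA from LSK cells (about 200 ng, per the labels' protocols) was sequenced in 3 samples per group. The submitters' processing notes name TopHat, Cuffdiff and the human build hg19, although the identifiers are mouse. Per the file headers, the authors deposited 1 FPKM value per group, a Cuffdiff p-value and q-value, and a test statistic (a score). They also deposited a log2 fold of WT over Tgif1 KO, also read as a score because infinite values are coded as numbers; it was turned round here.

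The deposited q-values were recomputed with Benjamini-Hochberg adjustment over 10730 tested genes. Standard errors are log2 ratio over test statistic, and intervals are at 95%. Symbols on several lines used the line with the higher mean, and current symbols missing from the table were matched by identifier. Members, lists and tests were chosen with earlier results of these data known. Genes named were the 8 members, Tgif1, Tgif2, Hdac8 and, per partner list, called genes or else the 2 smallest p-values at 1 FPKM or more, and the most abundant. Of the genes so selected, 1 is not reported here and is left out of the list counts. Marker genes and Gm10093 were named after their values were seen. Adjustment and error floor were tested on simulated data. Alternatives were q thresholds of 0.01 and 0.1, a minimum fold of 1.5, minima of 1 and 5 FPKM, pseudocounts of 0.1 and 1, centring, an error floor over 20 bins and, added after the data were seen, scaling to equal total FPKM and adding Gm10093 to Hdac1. Calculations used Python 3.11.15, pandas 2.3.3, numpy 2.4.6, scipy 1.17.1 and matplotlib 3.10.9.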

Additional observations from a re-analysis of the deposited data

How the results depend on the processing

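Corepressor and partner genes called stayed at 0 under each of the 8 other settings tried, while the count over all genes, 71 as deposited, ran from 21 with the error floor to 99 at a q threshold of 0.1. It was 39 at 0.01, 42 with a minimum fold of 1.5 and 46 at 5 FPKM or more. With 0 corepressor and partner genes called as deposited, a q threshold of 0.01 and a minimum fold of 1.5 could not have changed that. The error floor can only raise an error, so it could not add a small p either. Of the other values, the log2 ratio of Ctbp2 changed sign, to 0.015 against -0.017, when ratios were centred on the median of tested genes, because it lay closer to 0 than that median. The median of class II and IV deacetylases became 0.030 when centred and -0.096 at 5 FPKM or more, and the log2 ratio of Hdac2, which has no test, became -0.015 when each group was scaled to the same total FPKM. No other log2 ratio, list median or paralog difference changed sign under the settings run for it. No paired analysis was possible because the table holds 1 value per group, and the groups, of equal size, share no number in their sample labels. With 1 value per group, no sample could be left out either. A missed call shows least for Ctbp2, Sin3b and Ctbp1, which had the largest standard errors of the set (0.23, 0.22 and 0.21). The depth is unknown, which also limits what a missed call shows, and its part in these errors was not tested.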
